A study of Homo sapiens with 2 samples.

Results

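ATP-binding cassette (ABC) transporters were examined in A549 cells, a human lung adenocarcinoma line. The family was taken as every listed gene whose symbol is ABCA, ABCB, ABCC, ABCD, ABCE, ABCF or ABCG followed by a number, with pseudogenes left out, which gave 33 of the 13137 genes in the table. RefSeq holds 45 coding genes with such symbols. The other 12, namely ABCA6, ABCA13, ABCB1, ABCB4, ABCB5, ABCB11, ABCC11, ABCC12, ABCD2, ABCG4, ABCG5 and ABCG8, had no row in the table. ABCB1, the P-glycoprotein drug pump that the study assayed by RT-PCR, is therefore missing from every count given.

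Both cell populations carried a lentiviral H1TetO cassette that makes a short hairpin RNA when doxycycline is given, selected with puromycin as a polyclonal pool. The hairpin was directed at SOX2 in A549-H1tetO-shRNA-SOX2 and was a scrambled sequence in A549-H1tetO-shRNA-Con. Both received doxycycline for 4 days, so the agent itself is common to both. From 4 µg of total RNA per population, 1 digital gene expression library was made and sequenced.

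There was 1 library per condition and no replicate. Each Fisher's exact test here thus compares the reads of 2 libraries, not the conditions, and each interval covers counting error only. In such bulk RNA, fewer cells expressing a gene and less of its RNA per cell cannot be told apart. The control library held 2304184 gene tags and the one labelled shRNA-SOX2 held 2093816, which were 65.5% and 60.6% of their clean tags. SOX2 itself gave 16 tags in the control and 23 under the label shRNA-SOX2, a ratio of 1.58 (95% interval 0.80 to 3.20). A lower SOX2 level was therefore not seen at this depth, and every direction below is that of the label. Of the epithelial keratins, KRT8 had 7702 and 12729 tags and KRT18 had 10318 and 7887, whereas KRT19 had 35 and 127. CDH1 had 50 in each library, and EPCAM had 8 and 4. Of 9 alveolar type II markers, SFTPD, NAPSA and LAMP3 had at most 6 tags in a library, and LPCAT1 had 217 and 227. The other 5 had no row in the table. For blood, endothelial, stromal and liver cells, 6 of 11 markers were listed, and they summed to 111 control tags and 105 in the other library. The stromal markers COL1A1 (44 and 43) and ACTA2 (49 and 45) held most of these. CD14 had 11 and 10, CD68 2 and 5, PTPRC 2 in each and PECAM1 3 and 0.

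ABC proteins bind and hydrolyse ATP to move substrates across membranes. Subfamily A moves mostly lipids, B and C include pumps for drugs and conjugates, D serves peroxisomes and lysosomes, and G holds sterol and drug carriers. Subfamilies E and F lack the membrane-spanning part and act on ribosomes. Efflux pumps matter in this study because side population cells are sorted by how well they expel the Hoechst dye, and fumitremorgin C, an inhibitor of ABCG2, was used there to block that efflux.

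A digital gene expression library counts a short tag from each captured mRNA, so the count does not grow with transcript length. The site at which tags start is not given in the sources used here, and CATG was taken from the data. Of the coding genes with no CATG in any GENCODE coding transcript, 5 of 101 (4.95%) were listed in the table, against 65.5% of those with one. For GATC, another site of the same length, 23.6% of the genes without it were listed. The tags below are the bases from the last CATG of each gene's main coding transcript, cut at an assumed 21 bases, and are shown for the genes on which the results turn. They are inferred, and 20 of the 33 members have more than 1 such tag among their coding transcripts, ABCC2, ABCC3, ABCA8 and ABCA12 included. Capitals mark the CATG site.
ABCG2: CATGgcattatatttttatct
ABCC3: CATGatgcttttacttccttg
ABCC1: CATGgttatgaagctttcaaa
ABCC2: CATGgtattttatttccttgt
ABCB6: CATGgaacggtgacaaaagtt
ABCE1: CATGcttttttctgtgcactt
ABCA12: CATGactgtttgtctcgaaaa
ABCA8: CATGcagagatcctgaggctt
ABCG1: CATGcagacatttttaaaagc

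In GRCh38 (GENCODE release 29) these tags lie in the last exon of their transcripts, with the exception of ABCA8. The ABCG2 tag is in the 3′ UTR in exon 16 of 16, chr4:88090547-88090567 on the minus strand. The ABCC3 tag is in the 3′ UTR in exon 31 of 31, chr17:50692030-50692050 on the plus strand. The ABCE1 tag is at chr4:145129003-145129023 (plus strand) and the ABCA12 tag at chr2:214931571-214931591 (minus strand), both in 3′ UTRs. The ABCB6 tag at chr2:219209930-219209950 (minus strand) runs across the end of the coding sequence, and an overlapping locus, AC068946.2, ends in the same tag. The ABCA8 tag at chr17:68875286-68875306 (minus strand) is in the coding sequence, in exon 37 of 40, and the same 21 bases also follow an inner CATG in transcripts of ABCA9. Of all 33 members, 30 had a tag at no CATG of any other gene. The third shared tag was that of ABCA5, found in transcripts of its neighbour ABCA10.

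The share of ABC genes that were called lay near that of all genes. At FDR 0.001 in Fisher's exact test, 6 of the 33 members (18.2%) were called, against 21.7% of all 13137 genes. Of these 6, the library labelled shRNA-SOX2 had more tags of 4, namely ABCA8, ABCA12, ABCB6 and ABCG2, and fewer of 2, namely ABCC3 and ABCE1. Over all genes 9.53% were called higher and 12.2% lower, so that 56.1% of calls were lower, or 66.6% with scaling by clean tags. The split of the members depended on the scaling too. With the clean tags of the whole libraries, which underlie the deposited TPM, 5 members were called, 2 higher and 3 lower, since ABCB6 and ABCG2 then missed the threshold and ABCG1 passed it.

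Summed over the 33 genes, ABC tags numbered 2856 in the control library and 2486 in the other, which per gene tag is a ratio of 0.958 (95% interval 0.907 to 1.01). For the 29 members whose tags came to 20 or more over both libraries, the log2 fold changes had a median of 0.14, beside -0.10 for all 10045 genes with that many. The sign of the member median depended on the minimum, being 0.17 with at least 10 tags and -0.18 with at least 100. All 6 calls fell among these 29, and 28.0% of the 10045 genes were called. Counts per gene tag differed 2-fold or more in 6 of the 29 (20.7%), against 23.4% of genes. The library labelled shRNA-SOX2 had the greater count for each of the 6, where 10.4% of genes were higher by that much and 13.0% lower. Among them were ABCA8 and ABCA12, which were called, and ABCB9, ABCC6 and ABCC9, which were not.

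**Figure D1:**
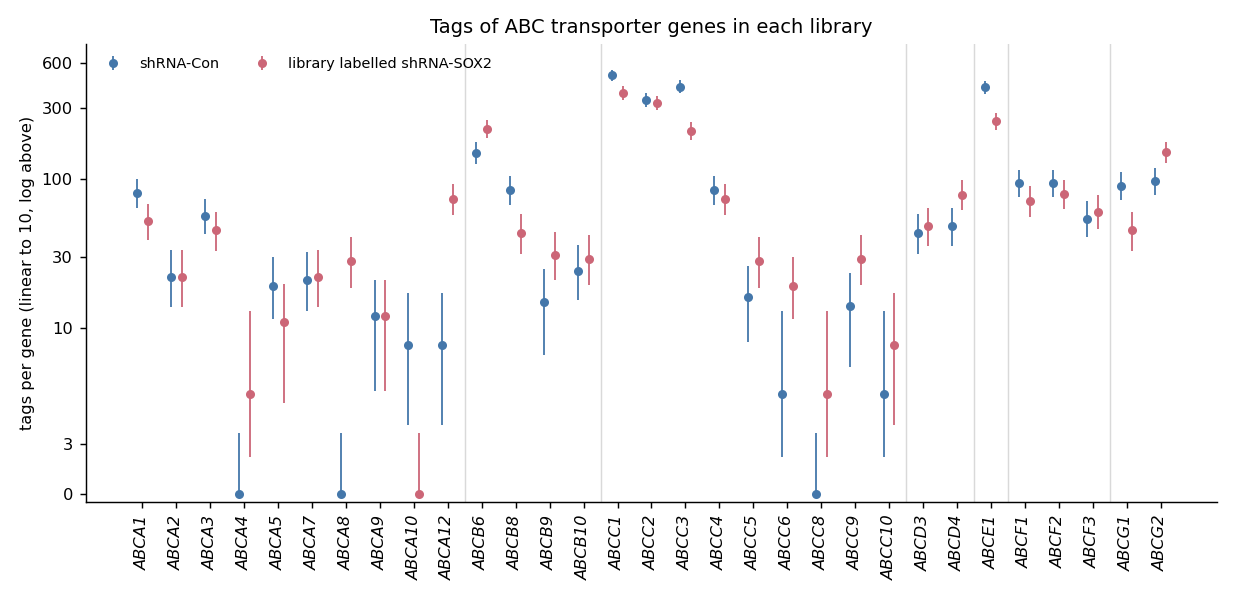
Tags of 31 ABC genes (vertical axis, linear to 10 and logarithmic above) in the control library (blue) and the library labelled shRNA-SOX2 (red), with 95% Poisson intervals and grey lines between subfamilies. Counts run from 0 to 492, and ABCC1, ABCC2, ABCC3 and ABCE1 stand at 209 tags or more in both libraries.

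The pumps of drugs, dyes and conjugates carried much of the family's mRNA. Of 9 such genes, 7 had a row, and they held 1447 of 2856 ABC tags (50.7%) in the control and 1167 of 2486 (46.9%) in the other library. Among them 1 was called higher, ABCG2, and 1 lower, ABCC3. The remaining 5 were not called. The 2 calls were 28.6% of the 7 genes, against 21.7% of all genes. Both were among the 6 of them with at least 20 tags, and 28.0% of genes with that many were called. The sum had a ratio of 0.887 (0.821 to 0.959), and 0.912 with ABCC1, its most tagged gene, left out, where the interval began at 0.829 and included 1.

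ABCG2, the breast cancer resistance protein that exports the Hoechst dye, was counted 96 times in the control (27.3 TPM) and 150 times (43.4 TPM) under the label shRNA-SOX2. The second count was higher by a ratio of 1.72 (95% interval 1.32 to 2.25), or 0.78 on the log2 scale (adjusted p = 0.000167, Fisher's exact test). With clean tags the log2 fold change was 0.67 and the adjusted p of Fisher's exact test was 0.00144, short of the threshold.

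ABCC3, a pump of glucuronides and bile salts on the basolateral membrane, fell from 414 tags (118 TPM) in the control to 209 (60.5 TPM). That ratio was 0.556 (0.468 to 0.658), or -0.85 on the log2 scale (adjusted p = 2.21e-11, Fisher's exact test). It had the second highest count of the family in the control and the fifth highest in the library labelled shRNA-SOX2.

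ABCC1, which exports glutathione conjugates and many cytotoxic drugs, had the highest count in each library, 492 and 376. Its ratio of 0.841 (0.733 to 0.964) did not pass the threshold (adjusted p = 0.0339, Fisher's exact test). ABCC2, its apical counterpart in conjugate export, had 339 and 322 tags, a ratio of 1.05 (0.895 to 1.22). Counting error thus leaves room for an ABCC2 difference no larger than these bounds.

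ABCC4, an exporter of cyclic nucleotides and nucleotide analogues, had 84 and 73 tags with a ratio of 0.956 (0.689 to 1.32). For ABCC5, a related nucleotide analogue exporter, the counts were 16 and 28 (1.93, 1.01 to 3.81), and for ABCC10, which exports taxanes, 6 and 9 (1.65, 0.525 to 5.64). With so few tags, the last ratio allows both a fall and a severalfold rise.

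Set against each other inside each library, the pumps changed their proportions, and this comparison does not depend on the scaling. For each ABCC3 tag there were 0.232 ABCG2 tags in the control and 0.718 under the label shRNA-SOX2, an odds ratio of 3.09 (95% interval 2.26 to 4.25, conditional exact). Relative to ABCC1 the odds ratio of ABCG2 was 2.04 (1.52 to 2.76), and relative to ABCC2 it was 1.64 (1.21 to 2.24). ABCC3 tags per ABCC2 tag went the other way, from 1.22 to 0.649, an odds ratio of 0.532 (0.421 to 0.670). All gene pairs compared in this way were picked after their values were seen, so the odds ratios are a description.

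**Figure D2:**
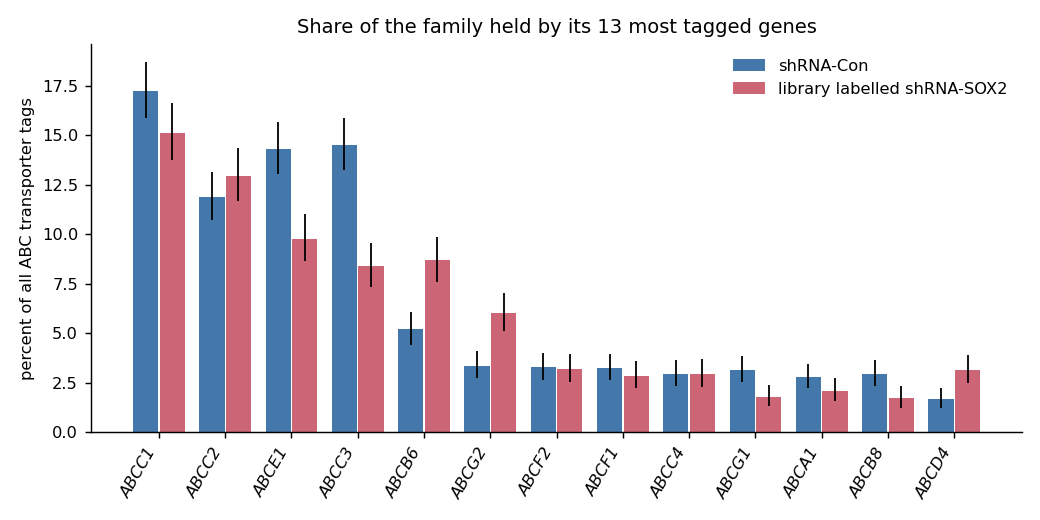
Share of all ABC transporter tags (percent, with 95% Clopper-Pearson intervals) held by the 13 genes with at least 120 tags in all, in the control (blue) and the library labelled shRNA-SOX2 (red). ABCC3 held 14.5% and then 8.41%, ABCE1 14.3% and 9.77%, ABCB6 5.22% and 8.69%, and ABCG2 3.36% and 6.03%.

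The lipid transporters included the largest ratios of the family, but at low counts. ABCA12, which loads glucosylceramides into the lamellar granules of keratinocytes, had 9 control tags and 73 under the label shRNA-SOX2. It was higher there by a ratio of 8.93 (4.45 to 20.3), or 3.16 on the log2 scale (adjusted p = 8.66e-14, Fisher's exact test). ABCA8, an ABCA member linked to cholesterol efflux, had 0 control tags and 28 in the other library. With the control count set to a floor of 3 tags, the ratio was 10.3, or 3.36 on the log2 scale (adjusted p = 1.03e-08, Fisher's exact test). That floor is not a bound, and the counting interval of the ratio itself began lower, at 7.81.

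ABCA8 lies in a run of related genes on chromosome 17 of GRCh38, all on the minus strand. ABCA8 (68867292 to 68955392) is followed by ABCA9 (68974488 to 69061064), then by ABCA6, which had no row in the table. Past ABCA6 lie ABCA10 (69147214 to 69244846) and ABCA5 (69244311 to 69327244), and the last pair overlap. Their counts did not move together. ABCA9 had 12 tags in each library, a ratio of 1.10 (0.452 to 2.68). ABCA10 had 9 control tags and 0 in the library labelled shRNA-SOX2 (adjusted p = 0.0139, Fisher's exact test). With the 0 set to the floor of 3 tags, it was 2.73-fold lower, while the upper limit on the ratio was 0.558. ABCA5 had 19 and 11 (0.637, 0.274 to 1.41). Since the ABCA8 tag recurs in ABCA9 and the ABCA5 tag in ABCA10, and how shared tags were assigned is not given in the sources used here, single counts in this run are uncertain.

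Neither sterol exporter was called. ABCA1, which hands cholesterol to apolipoprotein A-I, had 80 control tags and 52 in the library labelled shRNA-SOX2 (0.715, 0.495 to 1.03). ABCG1, which exports sterols to high-density lipoprotein, had 90 and 45, a ratio of 0.550 (0.376 to 0.795) or -0.86 on the log2 scale, which missed the threshold (adjusted p = 0.00389, Fisher's exact test). With clean tags its log2 fold change was -0.98 and it passed (adjusted p = 0.000851, Fisher's exact test).

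ABCA3, which fills the surfactant-storing lamellar bodies of alveolar type II cells, had 56 and 45 tags (0.884, 0.584 to 1.33). ABCA2, an endolysosomal lipid transporter, had 22 in each library, and ABCA7, a phospholipid transporter, had 21 and 22. The photoreceptor retinoid transporter ABCA4 had 0 and 6. None of these 4 was called. Taking the ABCA subfamily together, 228 control tags stood against 271 (ratio 1.31, 1.09 to 1.57). Without ABCA8 and ABCA12, the 8 remaining genes had 219 and 170 tags, a ratio of 0.854 (0.695 to 1.05).

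Among the mitochondrial and heme transporters the members diverged. ABCB6, a porphyrin transporter of the outer mitochondrial membrane and lysosome, rose from 149 tags to 216, a ratio of 1.60 (1.29 to 1.98), or 0.67 on the log2 scale (adjusted p = 6.05e-05, Fisher's exact test). With clean tags the log2 fold change was 0.56 and the adjusted p of Fisher's exact test 0.00105. ABCB8, of the inner mitochondrial membrane, had 84 control tags and 43 in the library labelled shRNA-SOX2 (0.563, 0.381 to 0.823) and was not called. ABCB10, which supports heme synthesis, had 24 and 29 (1.33, 0.747 to 2.39).

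Free of scaling, ABCB6 tags per ABCB8 tag were 1.77 in the control and 5.02 in the other library, an odds ratio of 2.83 (1.82 to 4.43).

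ABCB9, the lysosomal peptide transporter, had 15 and 31 tags (2.27, 1.19 to 4.53) and was not called. TAP1 and TAP2, ABC proteins that transport peptides for MHC class I and whose symbols lie outside the rule, had 47 and 51, and 23 and 48. For TAP2 the ratio was 2.30 (1.37 to 3.96; adjusted p = 0.00319, Fisher's exact test). CFTR, the chloride channel of the ABCC subfamily, had 3 and 0, which gives no fold.

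Of the ABCD subfamily, ABCD4, a lysosomal cobalamin exporter, had 48 control tags and 78 in the library labelled shRNA-SOX2 (1.79, 1.23 to 2.62; adjusted p = 0.00621, Fisher's exact test). ABCD3, the peroxisomal importer of branched-chain fatty acids, had 43 and 48 (1.23, 0.797 to 1.90). Neither was called.

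The soluble members act in translation, and they held 650 and 453 tags, a ratio of 0.767 (0.679 to 0.866). ABCE1, which splits ribosomes after termination, had the most tags of the 4. It fell from 409 tags to 243, a ratio of 0.654 (0.556 to 0.768), or -0.61 on the log2 scale (adjusted p = 9.12e-07, Fisher's exact test). ABCF1, which binds initiation factor eIF2, had 93 and 71 tags (0.840, 0.608 to 1.16), ABCF2 had 94 and 79 (0.925, 0.677 to 1.26), and ABCF3 had 54 and 60 (1.22, 0.832 to 1.80). No ABCF gene was called, and without ABCE1 the ratio of the sum was 0.959 (0.793 to 1.16). The odds ratio of ABCE1 against ABCF1 was 0.779 (0.542 to 1.12), so a difference between their changes was not detectable at this depth.

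The sulfonylurea receptors, regulatory subunits of potassium channels rather than pumps, were near the lower limit of the counts. ABCC9 had 14 and 29 tags (2.28, 1.17 to 4.67) and ABCC8 had 0 and 6. ABCC6, whose loss causes ectopic mineralization, had 6 and 19 (3.48, 1.34 to 10.7; adjusted p = 0.0152, Fisher's exact test). None of the 3 was called. ABCC6 sits beside ABCC1 on chromosome 16 of GRCh38 (16148928 to 16223522, minus strand, and 15949577 to 16143074, plus strand). It has pseudogene copies that could share tags, although its tag was found at no CATG of another annotated gene.

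**Figure D3:**
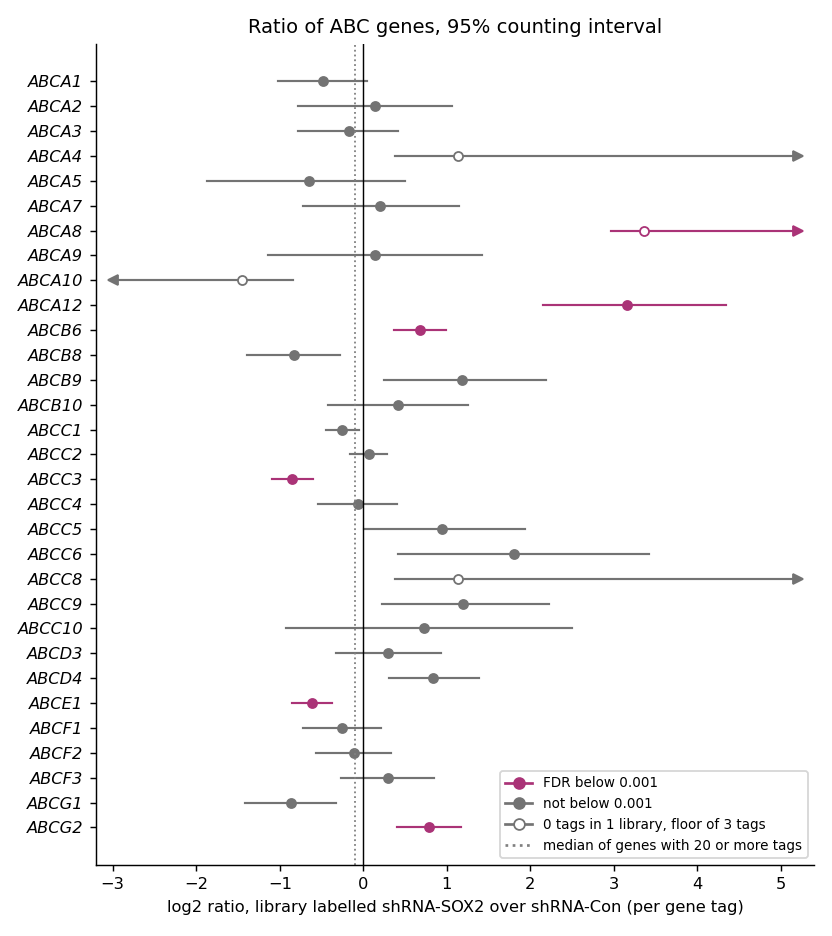
Log2 ratio per gene tag of 31 ABC genes, library labelled shRNA-SOX2 over control, with 95% Clopper-Pearson intervals. Purple marks the 6 genes below FDR 0.001, open circles the 4 genes with 0 tags in a library (placed at a floor of 3 tags), arrows an unbounded side, and the dotted line the median of -0.10 over genes with at least 20 tags.

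By level, the order of the most abundant members in the control was ABCC1, ABCC3, ABCE1, ABCC2, ABCB6 and ABCG2. These 6 held 66.5% of ABC tags there. ABCC3 and ABCE1, with 414 and 409 tags, had overlapping intervals. In the library labelled shRNA-SOX2 the order was ABCC1, ABCC2, ABCE1, ABCB6, ABCC3 and ABCG2, with 61.0% of ABC tags, and the intervals of ABCE1, ABCB6 and ABCC3 (243, 216 and 209 tags) overlapped. At the other end, 4 members did not reach 20 tags over both libraries, ABCA4, ABCA10, ABCC8 and ABCC10, with between 6 and 15. The fewest tags of any called gene in the table were 12, and 3 of the 4 had fewer.

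**Figure D4:**
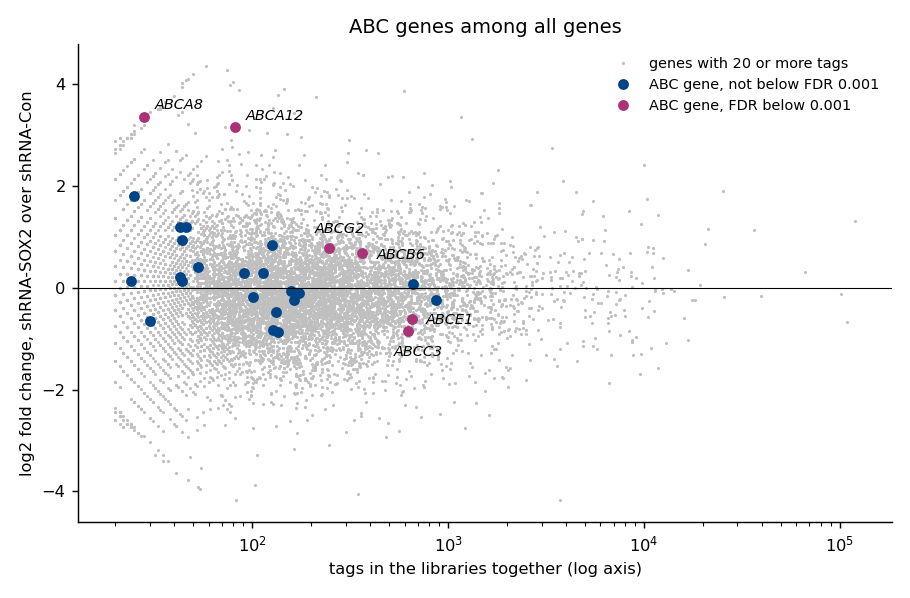
Log2 fold change of the library labelled shRNA-SOX2 over control against tags in the libraries together (log axis) for genes with at least 20 tags (grey) and 27 of the 29 ABC genes among them (blue, or purple when below FDR 0.001). These lie within the spread of the other genes, with ABCA8 and ABCA12 near its upper edge.

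The regulators of ABC genes were taken as 17 transcription factors and KEAP1. Counting both directions, they were called about as often as other genes. Of these 18, 16 had a row and 4 (25%) were called, against 21.7% of all genes. Each of the 4 was lower, where 12.2% of all genes were called lower. NFE2L2, the antioxidant regulator of several ABCC genes, fell from 225 tags to 100 (log2 fold change -1.03), and AHR, the dioxin receptor, from 225 to 113 (-0.86). HIF1A, the hypoxia factor, fell from 1511 to 464 (-1.57) and YBX1, a Y-box factor, from 2846 to 1224 (-1.08). KEAP1, which restrains NFE2L2, had 255 and 296 tags (1.28, 1.08 to 1.52) and was not called.

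Glutathione genes make and attach the group that ABCC pumps export, and 9 of 13 (69.2%) were called, 5 higher and 4 lower. The share called was 21.7% of all genes and 28.0% of genes with at least 20 tags, which all 13 had. Some had many more tags than that, and a share at like depth was not computed. Of those that supply glutathione, GCLC fell from 463 to 293 tags, GSS from 165 to 91 and GSR from 133 to 69, whereas GCLM, with 413 and 347 (0.925, 0.799 to 1.07), was not called. GSTP1 was also lower, from 1696 to 1008. Higher were MGST1, from 3408 to 8350, GSTK1, from 267 to 430, MGST2, from 65 to 127, GSTA4, from 30 to 63, and GSTM3, from 39 to 73. The glutathione S-transferases are families of similar genes, so that tags of single members could be shared.

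Outside the ABC family, 5 of 17 drug and metal transport genes (29.4%) were called, 4 higher and 1 lower, against 21.7% of all genes. All 5 were among the 14 of them with at least 20 tags, and 28.0% of genes with that many were called. MVP, the major vault protein, rose from 118 tags to 283, SLC47A1, a proton-coupled drug exporter, from 58 to 120, ATP7A, a copper pump, from 81 to 146, and SLC29A1, a nucleoside carrier, from 137 to 203. SLC46A1, the folate transporter, fell from 103 to 49. Around ABCA1 and ABCG1, 4 of 8 cholesterol genes (50.0%) were called, against 21.7% of all genes. These 8 each had at least 20 tags, and 28.0% of genes with that many were called. NPC2 (422 to 735) and LCAT (24 to 56) were higher, and NPC1 (124 to 48) and SCARB1 (127 to 58) lower.

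Around ABCE1 and the ABCF genes, 6 of 13 ribosome and eIF2 partners (46.2%) were called, 5 of them lower. Over all genes 21.7% were called and 12.2% called lower. The 13 partners each had at least 20 tags, and 28.0% of genes with that many were called. Most had many more tags than that, and no share was taken at like depth. ETF1 (532 tags to 273), EIF2S1 (565 to 254), EIF2S2 (971 to 317), EIF6 (892 to 490) and EIF2D (74 to 20) were lower, as was ABCE1, while PELO, the ribosome rescue factor that works with ABCE1, was higher (212 to 279). Of 18 iron-sulfur and heme genes 4 (22.2%) were called, the share of all genes being 21.7%, with FDXR (324 to 1464) and FECH (88 to 152) higher, BOLA3 (243 to 141) and ISCA2 (212 to 124) lower. Of 21 peroxisome genes 3 (14.3%) were called, below that 21.7%, with CAT (146 to 234) and HSD17B4 (164 to 230) higher and PEX16 (61 to 19) lower.

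A further list held SOX2, POU5F1, NANOG, NOTCH1, MYC, ABCB1 and ABCG2, which were among the genes assayed by RT-PCR, with the WNT genes of that assay left out. Of its 7 genes, 4 had a row and 2 (50.0%) were called, against 21.7% of all genes and 28.0% of those with at least 20 tags. MYC fell from 542 tags to 125 (log2 fold change -1.98), while SOX2 and NOTCH1 (12 and 15 tags) were not called. ABCG2 was the gene called higher and MYC the one called lower, and 4 genes are too few to read a share from.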

How the data were processed

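A549 cells of 2 libraries, shRNA-Con and shRNA-SOX2, were profiled by digital gene expression. The authors deposited tag counts per Entrez Gene ID with no normalization, and TPM, scaled to the clean tags of the whole library, in which 0 tags is written as 0.01 TPM. The submitters' processing notes name hg19. The aligner, tag-making enzyme and tag length are not given in the sources used here. Columns marked SC and S1 were read as shRNA-Con and, as the one left, shRNA-SOX2. Columns with the authors' own log2 ratios, p-values and FDR were not used.

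Each count was divided by its library's gene tags, with counts under 3 set to 3 for a fold. A two-sided Fisher's exact test per gene was adjusted by Benjamini-Hochberg over 13137 genes, with the study's FDR of 0.001 as threshold. Ratios and shares carry 95% Clopper-Pearson intervals. Python 3.11.15, scipy 1.17.1, R 4.3.3, edgeR 4.0.16 and DESeq2 1.42.0 were used, and the test was checked on simulated data. Alternatives were other scalings, a minimum of 10 tags, FDR 0.05, a minimum fold, and sums without the most tagged gene. Assumed coefficients of variation of 0.1, 0.2 and 0.4 in edgeR's exact test were also used, and for the median a minimum of 100 tags. Every ABC gene was to be named if it had 20 tags or was called, with genes of related lists if called. Members and lists were chosen with earlier results of these data known. RefSeq IDs matched 13086 genes. Rows with no symbol held 0.0535% and 0.0372% of the gene tags. Sequences come from GENCODE release 29 (GRCh38). The single values of 2 members are not reported here, although they stay in the counts and sums over the family.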

Additional observations from a re-analysis of the deposited data

How the results depend on the processing

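No paired analysis was possible because 1 library stands for each condition, which also means that none could be left out. The 6 member calls were the same 6 genes under TMM scaling, median-ratio scaling or a minimum of 10 tags. With clean tags 5 were called, 2 higher and 3 lower, and 4 of the 5 were among the 6. In edgeR's exact test with an assumed coefficient of variation of 0.1 or 0.2, 2 of the 6 remained, ABCA8 and ABCA12, both higher, with 0 lower. With 0.4 none did (0, with 3 members at an unadjusted p under 0.05 in that test). Over the whole table these settings called 1166, 113 and 0 genes (627 at an unadjusted p under 0.05 with 0.4), against 2849 with Fisher's exact test, and no replicate says which spread applies. At FDR 0.05, 17 members (51.5%) were called, 11 higher and 6 lower, beside 4902 genes (37.3%). When a 2-fold difference was also required, 2 members and 1570 genes were called.

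Clean tags moved the median of all genes with at least 20 tags from -0.10 to -0.22 and that of the members from 0.14 to 0.02. They moved the ratio of the summed drug pumps to 0.821 and of all members to 0.886. Without its most tagged gene, the ratio of the sum was 1.63 for ABCA (1.31 with it) and 0.959 for the soluble members (0.767). For a lipid list of ABCA1, ABCA2, ABCA3, ABCA4, ABCA5, ABCA7, ABCA12 and ABCG1, which left out ABCA8, that ratio was 1.23 (1.02). It turned from above 1 to below 1 for ABCG (1.15 to 0.550), for ABCB (0.819 without ABCB6) and for the mitochondrial members (0.680 without ABCB6). Near 0, ABCC4 turned to 0.01 (0.0085 by TMM, 0.0061 by median ratio) and ABCC2 to -0.0494 with clean tags on the log2 scale. The sum without ABCA8 and ABCA12 was added after seeing the data.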
